A study of Mus musculus with 4 samples.

Results

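Elastic and oxytalan fibre proteins were followed as a set of 10 genes: Eln, Fbn1, Fbn2, Fbln5, Efemp1, Efemp2, Mfap2, Mfap4, Mfap5 and Emilin1. They were chosen by name, as the elastin core, the microfibril proteins and the proteins that link them, with earlier results of these data known. They are 10 of the 22911 genes that the array probes could be matched to. RNA came from mouse tissue with the label PDL (periodontal ligament, the soft tissue that anchors a tooth root in its socket). The 4 groups were WT (wild type) and Mkx-KO (Mkx knockout) mice, each at an age of 10 weeks and of 4 weeks. Mkx encodes Mohawk, a homeobox transcription factor of tendon and ligament. The labels give no strain, sex, deleted exon or number of animals per preparation. Each group had 1 one-colour array, so no difference between 2 arrays has a replicate check and none of the pairwise values carries a p-value.

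Elastic fibres are built by laying elastin onto a scaffold of microfibrils, whose backbone is fibrillin. Fibulins and microfibril-associated glycoproteins join the parts, and lysyl oxidases crosslink the elastin. The periodontal ligament is known for oxytalan fibres, which are bundles of microfibrils with little or no elastin that run among the collagen fibres of the ligament.

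Most of the 10 genes were lower at 10 weeks than at 4 weeks, and at 4 weeks most were higher in Mkx-KO than in WT. Of all genes measured, 59.5% in WT and 62.3% in Mkx-KO were lower at 10 weeks, and 58.8% were higher in Mkx-KO at 4 weeks. Fbn2, the fibrillin made mainly in growing tissue, differed most: it was 2.42-fold higher in Mkx-KO than in WT at 4 weeks, and at 10 weeks it was 3.19-fold lower than at 4 weeks in WT and 7.06-fold lower in Mkx-KO. Eln, the gene of elastin itself, was 2.24-fold and 2.40-fold lower at 10 weeks in WT and in Mkx-KO, with almost no difference between the genotypes at either age. Efemp1, the gene of fibulin-3, went the other way: its level in Mkx-KO was below WT at both ages, and it was higher at 10 weeks in both genotypes. At 10 weeks none of the 10 genes was 2-fold apart between Mkx-KO and WT. Few of all genes measured were, with 1.04% at least 2-fold higher and 1.37% at least 2-fold lower.

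All 16 probes of the 10 genes were well above background on all 4 arrays by the scanner software's own call, so every gene had a value in every comparison. Where a gene had a pair of probes, the brighter one was used. The level of a gene is the log2 of its processed signal minus that of the array's 75th percentile, and a difference is between 2 such levels. A gene was called in a comparison when it was at least 2-fold apart (1 log2 unit) and well above background on both arrays. Errors are the scanner software's estimates for both spots combined, close to 0.20 log2 units for every difference of these genes. A count of these genes beyond 1 error is therefore nearly a fixed cutoff. The errors do not cover variation between mice. Because different probes bind with different strength, each gene is compared only with itself across arrays.

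**Figure D1:**
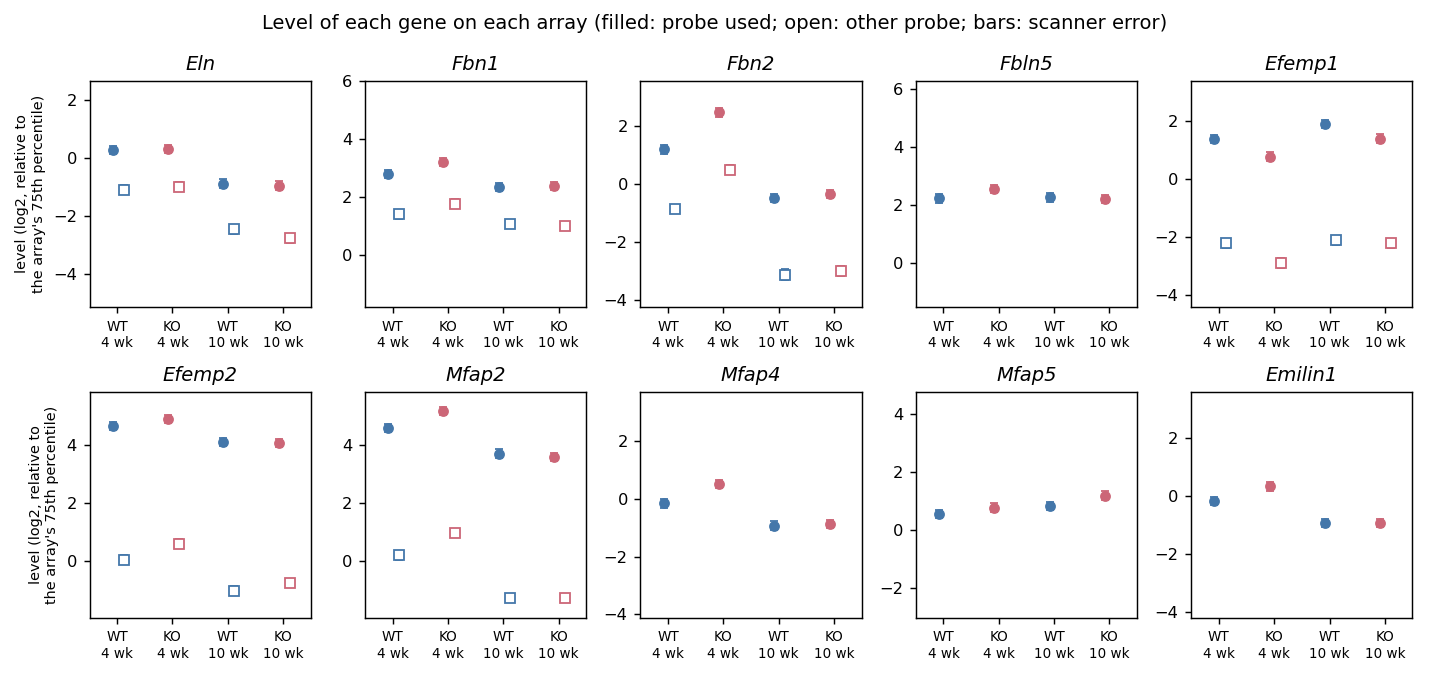
Level of each gene (log2, relative to the array's 75th percentile) on the 4 arrays, blue for WT and red for Mkx-KO. Filled circles are the probe used, open squares the other probe where a gene has 2, bars are 1 scanner error, and every panel spans the same number of log2 units. Fbn2 spans 2.95 units over the arrays and Fbln5 spans 0.34.

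Mkx itself was lower in Mkx-KO, at 23.3% of the WT level at 10 weeks and 31.8% at 4 weeks (differences of -2.10 and -1.65, errors 0.21); where its probe lies relative to the deleted part was not used here. All 7 ligament fibroblast markers were well above background on every array, and their summed level, in multiples of each array's 75th percentile signal, was 1402 (WT) and 1411 (Mkx-KO) at 4 weeks, and 1234 and 1362 in the same order at 10 weeks. Such sums are weighted to the brightest probes and can hide differences of dimmer genes. Gene by gene, Mkx-KO minus WT ran from -0.35 to 0.30 at 4 weeks and from -0.28 to 0.71 at 10 weeks. The Mkx-KO array at 4 weeks stood apart in its other tissue. Its summed level of 7 nasal mucosa markers was 1.22, against 612 for WT at 4 weeks and 1188 and 1540 at 10 weeks, and 1 of the 7, Bpifb9b, was not well above background on it. Its 8 skeletal muscle markers summed to 41.9, against 96.6 for WT at 4 weeks and 120 and 166 on the 10-week arrays of WT and Mkx-KO. Its 8 smooth muscle markers summed to 85.8, against 39.9 for WT at 4 weeks and 30.3 and 30.2 at 10 weeks, although 1 of the 8, Lmod1, was not well above background on any array. The other 7 did not move together. Against WT of that age 5 were higher, Acta2 (1.63) and Tagln (1.22) most, and 2 were lower, Myh11 (-0.36) and Des (-1.57). Smooth muscle also makes elastic fibre proteins, and the part of these tissues in the results below was not tested. The 10-week genotype comparison and the WT age comparison do not use that array, but tissue markers differed in them too. At 10 weeks the sums for WT and Mkx-KO were 925 and 509 for oral epithelium and 168 and 263 for bone markers. Endothelium markers (26.0 and 28.3) and cartilage markers (46.7 and 48.8) differed less. In WT at 4 weeks oral epithelium markers summed to 365 and bone markers to 452. In such bulk samples, fewer cells of a type and less RNA per cell cannot be told apart.

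**Figure D2:**
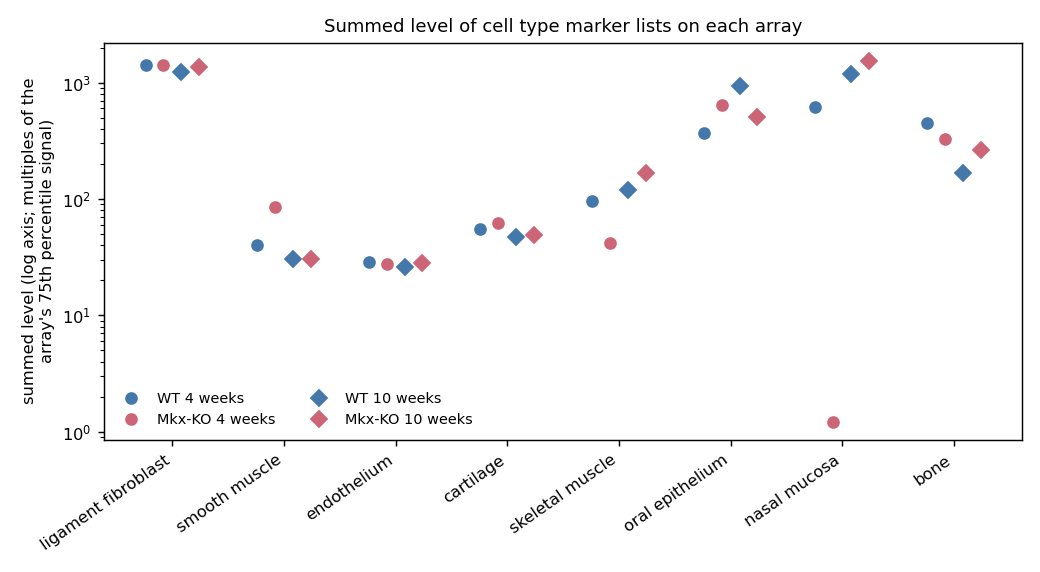
Summed level of each marker list on the 4 arrays, on a log axis, in multiples of the array's 75th percentile signal. Ligament fibroblast markers lie between 1234 and 1411, while the nasal mucosa markers of the Mkx-KO array at 4 weeks lie at 1.22 against 612 to 1540 on the other arrays.

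Promoters of 6 of the 10 genes were found by symbol in a RefSeq table on build GRCm38.p6, with 10 annotated starts among them (Efemp2 has 3, Fbln5 and Mfap2 have 2 each). The 160 bases upstream of a start are shown for Mfap2, Emilin1 and Fbn1, which were all lower at 10 weeks and higher in Mkx-KO at 4 weeks, and for Efemp1, which differed in the opposite direction in both. Each is written 5′ to 3′ on the strand of its gene and ends at the base before the start; capitals mark the GC box, GGGCGG or its complement CCGCCC, the motif read by SP1-type factors. The stretches are chr4:141010521-141010680 on the plus strand for Mfap2 (the downstream one of its 2 starts) and chr5:30913626-30913785 on the plus strand for Emilin1. For Fbn1 the stretch is chr2:125506439-125506598 on the minus strand, and for Efemp1 it is chr11:28853045-28853204 on the plus strand.
Mfap2: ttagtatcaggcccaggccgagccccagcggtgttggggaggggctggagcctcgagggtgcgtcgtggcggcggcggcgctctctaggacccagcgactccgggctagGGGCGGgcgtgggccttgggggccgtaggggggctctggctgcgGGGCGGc
Emilin1: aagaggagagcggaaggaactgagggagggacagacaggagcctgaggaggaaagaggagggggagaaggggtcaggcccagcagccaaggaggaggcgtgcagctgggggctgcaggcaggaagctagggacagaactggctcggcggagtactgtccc
Fbn1: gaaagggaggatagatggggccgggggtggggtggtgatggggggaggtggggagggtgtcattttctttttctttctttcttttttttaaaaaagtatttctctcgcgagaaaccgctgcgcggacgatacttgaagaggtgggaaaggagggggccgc
Efemp1: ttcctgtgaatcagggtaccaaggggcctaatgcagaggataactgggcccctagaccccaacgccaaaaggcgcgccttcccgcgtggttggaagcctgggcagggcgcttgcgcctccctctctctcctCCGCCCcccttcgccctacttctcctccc

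Within the 250 bases upstream, GGGCGG was found on either strand in 7 of the 10 promoters of these genes and in 32.7% of the 32851 RefSeq promoters. It occurred 2 times at this Mfap2 start, the nearer one beginning 7 bases upstream, 1 time at Efemp1 and 1 time at Fbn1, where it begins 185 bases upstream and so outside the stretch shown, and it was not in the Emilin1 window. The letters TATAAA were in none of the 10 (12.4% of all promoters). The letters CAGCTG, an E-box, were in 1, at Emilin1 beginning 59 bases upstream (13.0% of all). The letters CAGAC, which SMAD proteins can bind, were in 4 of the 10, with 2 copies at Emilin1 (42.2% of all). The starts of one gene overlap or lie near each other and share sequence, so the 10 are not independent. The windows of Mfap2 and Emilin1, whose RNA differed alike over the arrays, share none of these motifs at the starts shown.

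Elastin, the stretchable core protein of the elastic fibre, read a processed signal of 320 (WT) and 353 in Mkx-KO tissue of 4 weeks. At 10 weeks the signals were 166 for WT and 133 for Mkx-KO. Both 10-week arrays lay below both 4-week arrays. As levels these were 0.26 and 0.30 at 4 weeks and -0.90 and -0.97 at 10 weeks, and within an age the genotypes were closer than 1 scanner error. Eln thus differed by -1.16 with age in WT and by -1.27 in Mkx-KO, and by 0.03 and -0.07 with genotype at 4 and 10 weeks. The dimmer Eln probe also gave the lower level at 10 weeks, by -1.38 in WT and -1.79 in Mkx-KO. The sign of the small genotype differences of Eln turned at both ages under another background correction (normexp), to -0.02 at 4 weeks and 0.09 at 10 weeks.

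Fibrillins form the backbone of the microfibril, and Fbn1, the main fibrillin of adult tissue, varied less than Fbn2. Fbn1 read 1852 in WT and 2637 in Mkx-KO tissue of 4 weeks, and 1566 and 1358 at 10 weeks. Its level was highest for Mkx-KO at 4 weeks (3.20), then WT at 4 weeks (2.80), and the 2 arrays at 10 weeks (2.39 for Mkx-KO, 2.34 for WT) did not differ beyond the error. Mkx-KO was 0.41 higher than WT at 4 weeks, and the 10-week level was 0.45 lower than the 4-week level in WT and 0.81 lower in Mkx-KO.

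Fbn2 read 608 in WT and 1582 in Mkx-KO tissue of 4 weeks, and 221 and 203 at 10 weeks. Its levels were 1.19 and 2.46 at 4 weeks and -0.48 and -0.36 at 10 weeks, so that the 4-week arrays were high, the Mkx-KO one most, and the 10-week arrays were low and alike. The Mkx-KO minus WT difference was 1.27 at 4 weeks with an error of 0.20 and 0.13 at 10 weeks with an error of 0.21. Of the 15686 genes measured on both 4-week arrays, 25 (0.159%), Fbn2 included, were as far or farther on the higher side in Mkx-KO. Fbn2 differed by -1.67 with age in WT and by -2.82 in Mkx-KO, where 12 of 15669 genes (0.0766%) were as far or farther down. The other Fbn2 probe gave 1.37 and 0.13 for genotype and -2.26 and -3.50 for age, the same directions with a larger age difference.

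The fibulins tie elastin to the microfibril. Efemp2, the gene of fibulin-4, which brings lysyl oxidase to elastin, read 6695 in WT and 8606 in Mkx-KO tissue of 4 weeks and 5313 and 4357 at 10 weeks. Both 10-week arrays were the lower ones. Mkx-KO differed from WT by 0.26 at 4 weeks and by -0.03 at 10 weeks, and age differed by -0.55 in WT and -0.84 in Mkx-KO. Its dimmer probe gave -1.07 and -1.36 for age, and at 10 weeks 0.27 for genotype, the opposite sign of the brighter one.

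Fbln5, the gene of fibulin-5, which binds elastin and integrins, was the steadiest of the set. Its signal was 1263 with WT and 1694 in Mkx-KO tissue of 4 weeks and 1499 and 1210 at 10 weeks, with levels of 2.24, 2.56, 2.28 and 2.22. Only the Mkx-KO array at 4 weeks was above the other 3 by more than 1 scanner error, by 0.32 over WT of that age, and the other 3 did not differ beyond it.

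Efemp1, the gene of fibulin-3, a fibulin of fascia and of the basement membrane under the retina, was the one gene of the set with a lower Mkx-KO level at each of the 2 ages. Its signal was 704 with WT and 493 in Mkx-KO tissue of 4 weeks, and 1155 and 685 at 10 weeks. Its level was highest for WT at 10 weeks (1.90) and lowest for Mkx-KO at 4 weeks (0.78), and Mkx-KO at 10 weeks and WT at 4 weeks were level at 1.40 each. Mkx-KO was 1.53-fold below WT at 4 weeks (-0.62, error 0.20) and 1.42-fold below at 10 weeks (-0.50, error 0.20), and the 10-week level was 0.50 higher in WT and 0.62 higher in Mkx-KO. The second Efemp1 probe was much dimmer; it gave -0.68 at 4 weeks and 0.67 for age in Mkx-KO, but -0.11 at 10 weeks and 0.10 for age in WT. Both probes were thus low on the Mkx-KO array at 4 weeks, and only the brighter one was high on the WT array at 10 weeks.

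The microfibril-associated glycoproteins sit on the fibrillin backbone. Mfap2, the gene of MAGP-1, read 6424 in WT and 10312 in Mkx-KO tissue of 4 weeks, and 4033 and 3104 at 10 weeks. The Mkx-KO array at 4 weeks was highest, at a level of 5.17, followed by WT at 4 weeks (4.59) and the 10-week arrays (3.71 for WT, 3.58 for Mkx-KO), which lay within 1 error of each other. Mkx-KO was 1.49-fold above WT at 4 weeks (0.58, error 0.20), and age differed by -0.88 in WT and -1.59 in Mkx-KO. The second probe gave 0.77 for genotype at 4 weeks and -1.47 and -2.25 for age.

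Mfap5, the gene of the related MAGP-2, did not share that pattern. Its signal was 393 with WT and 491 in Mkx-KO tissue of 4 weeks and 550 and 592 at 10 weeks, and the 10-week arrays were the higher ones in both genotypes, by 0.27 and 0.41. Mkx-KO was 0.21 above WT at 4 weeks and 0.36 above at 10 weeks, where Mfap5 was the one gene of the set higher by more than 1 scanner error.

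Mfap4, whose product binds tropoelastin and helps it assemble, read 237 in WT and 408 in Mkx-KO tissue of 4 weeks and 162 and 141 at 10 weeks. Its levels were -0.17 and 0.51 at 4 weeks and -0.93 and -0.88 at 10 weeks. Mkx-KO was 1.60-fold above WT at 4 weeks (0.68, error 0.20), and age differed by -0.76 in WT and -1.39 in Mkx-KO. Emilin1, a glycoprotein at the border of elastin and microfibrils that holds back the maturation of TGF-beta, read 236 in WT and 360 in Mkx-KO tissue of 4 weeks and 162 and 135 at 10 weeks. Mkx-KO was 1.42-fold above WT at 4 weeks (0.51, error 0.20) and level with it at 10 weeks (-0.01), and age differed by -0.75 in WT and -1.27 in Mkx-KO. Mfap4 and Emilin1 were each high on the Mkx-KO array at 4 weeks, intermediate on the WT array of that age and low on both 10-week arrays.

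Set beside all genes, the 4-week genotype differences of the set lay on the higher side. Of the 10 genes 9 were higher in Mkx-KO at 4 weeks and 1, Efemp1, was lower, with a median of 0.36, whereas 58.8% of all 15686 genes measured were higher and their median was 0.06. Under normexp Eln turned to the lower side there, and no other gene of the set changed sign at 4 weeks under any scaling, background or probe alternative. Fbn2 alone was higher by 2-fold or more and no gene was that much lower, against 0.472% and 3.31% of all genes. By the scanner error, 9 of the 10 differed by more than 1 error and 5 by more than 2 (Fbn2, Mfap4, Efemp1, Mfap2 and Emilin1), beside 42.3% and 15.6% of all genes. Over the same arrays the ligament fibroblast markers had a median of 0.05 and the smooth muscle markers of 0.60 (5 of 7 measured higher, 2 lower, from -1.57 to 1.63). All 7 oral epithelium markers were higher, with a median of 0.74 and a summed level of 636 against 365. The medians were 0.21 for cartilage, -0.08 for endothelium and -0.10 for bone markers, with nasal mucosa markers at -6.92 and skeletal muscle markers at -1.26; their part in the differences of the set was not tested.

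**Figure D3:**
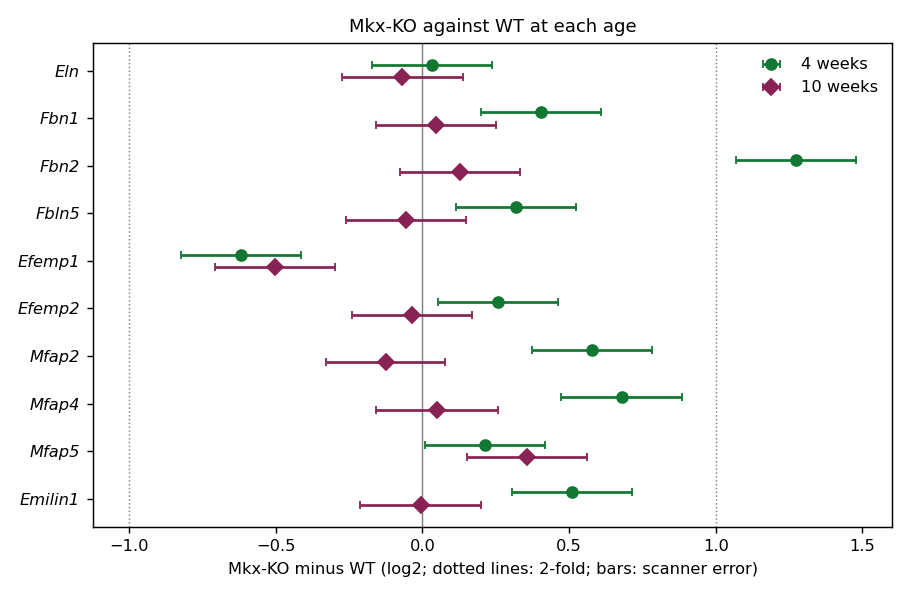
Mkx-KO minus WT (log2) of each gene at 4 weeks (circles) and 10 weeks (diamonds), with bars of 1 scanner error and dotted lines at 2-fold. At 4 weeks 9 of 10 genes lie above 0 and Fbn2 passes 2-fold at 1.27; at 10 weeks all lie between -0.50 and 0.36.

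At 10 weeks the genotypes were close. None of the 10 genes was at least 2-fold higher or lower, against 1.04% and 1.37% of the 16457 genes measured. There were 4 genes above 0 and 6 below it, with a median of -0.02 beside 0.01 for all genes, and 2 of the 10 differed by more than 1 scanner error, Efemp1 at -0.50 and Mfap5 at 0.36, beside 36.3% of all genes. The other 8 lay within the error, and 5 of them turned sign under an alternative: Eln and Emilin1 turned under normexp, Fbn1 and Mfap4 with the deposited scaling, and Fbn1 and Efemp2 when probes were averaged. Over the same arrays oral epithelium markers had a median of -0.83, with all 7 lower, and skeletal muscle markers of 0.50, with all 8 higher. The other marker medians lay between 0.07 and 0.18. Bone markers ranged from -0.33 to 1.58 and nasal mucosa markers from -0.50 to 2.66, with 4 of the 7 nasal markers higher and 3 lower. The part of these tissues in the 10-week values was not tested.

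The genotype difference at 10 weeks minus that at 4 weeks was negative for 8 of the 10 genes, with a median of -0.37, against 55.9% of 15504 genes and a median of -0.05. It was -1.15 for Fbn2, -0.70 for Mfap2, -0.63 for Mfap4 and -0.51 for Emilin1, each with a scanner error of 0.29, and the other genes lay between -0.38 and 0.14. With 1 array per group this difference of differences leaves no residual degree of freedom and was not tested.

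With age, most of the set was lower at 10 weeks. In WT, 7 genes were lower and 3 higher at 10 weeks, with a median of -0.65 beside -0.10 for the 16102 genes measured, of which 59.5% were lower. Eln and Fbn2 were lower by 2-fold or more and no gene was that much higher, against 3.83% and 5.01% of all genes. In Mkx-KO, 8 were lower and 2 higher, with a median of -1.05 beside -0.15 for 15669 genes, of which 62.3% were lower. Eln, Fbn2, Mfap2, Mfap4 and Emilin1 were lower by 2-fold or more and no gene was that much higher, against 3.84% and 6.25% of all genes. The same 7 genes (Eln, Fbn1, Fbn2, Efemp2, Mfap2, Mfap4 and Emilin1) were lower in both genotypes, Efemp1 and Mfap5 were higher in both, and these directions held under every scaling and probe alternative tried. With the deposited scaling and under normexp, Eln was no longer 2-fold lower in either genotype and Emilin1 no longer in Mkx-KO.

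**Figure D4:**
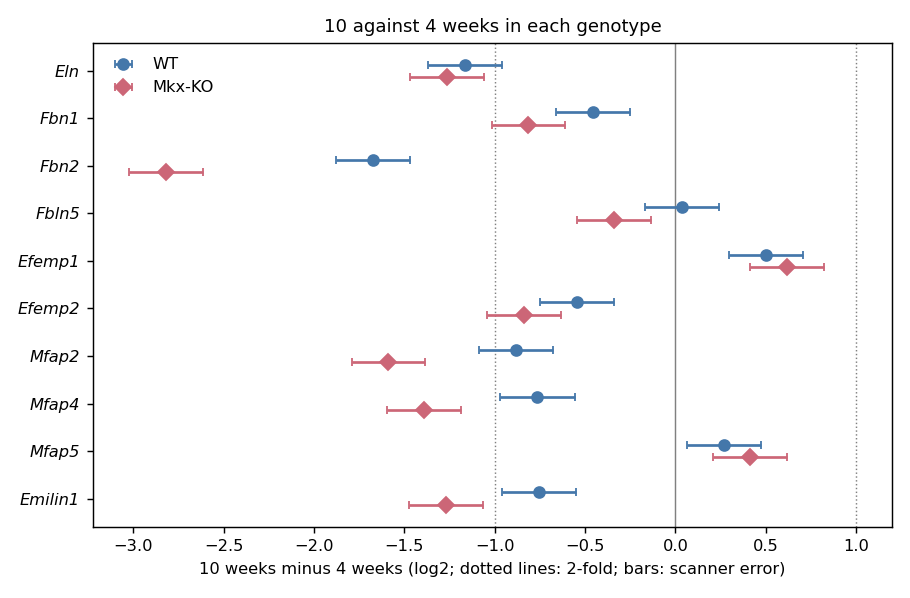
Difference between 10 and 4 weeks (log2) of each gene in WT (circles) and Mkx-KO (diamonds), with bars of 1 scanner error and dotted lines at 2-fold. Below 0 in both genotypes lie 7 genes, and Fbn2 lies farthest, at -1.67 in WT and -2.82 in Mkx-KO.

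For all 10 genes the age difference was larger in size in Mkx-KO than in WT. This is the same quantity as the change of the genotype difference with age given above, read along the other axis, and adds nothing to it. The genotype and age comparisons also share arrays: the Mkx-KO array at 4 weeks, on which 8 of the 10 genes had their highest level (44.0% of all genes did), enters both. Ligament fibroblast markers had age medians of -0.21 in WT (from -1.22 to -0.10) and -0.12 in Mkx-KO (from -0.90 to 0.42). Smooth muscle markers had age medians of -0.24 in WT (from -0.93 to 0.63) and -1.11 in Mkx-KO (from -2.14 to 2.65). In each genotype 5 of the 7 measured smooth muscle markers were lower at 10 weeks and 2 were higher. Bone markers were lower at 10 weeks in WT in 6 of 6 cases, at differences of -2.26 to -0.20 and a summed level of 168 against 452, and in Mkx-KO their median was -0.78 and the sums 263 against 325. Oral epithelium markers had medians of 1.21 in WT, where all 7 were higher, and -0.40 in Mkx-KO. The largest marker differences with age in Mkx-KO were of nasal mucosa and skeletal muscle. Nasal mucosa markers had medians of 0.74 in WT and 7.75 in Mkx-KO, where all 6 measured were higher. Skeletal muscle markers had medians of 0.18 in WT and 1.81 in Mkx-KO, where all 8 were higher. The medians in WT and Mkx-KO were -0.15 and -0.41 for cartilage and -0.271 and -0.003 for endothelium markers. The part of these tissues in the age differences of the set was not tested. The deposited scaling of the arrays raised the age difference of all genes together, from a median of -0.10 to 0.26 in WT and from -0.15 to 0.14 in Mkx-KO, and with it the share of higher genes among the called ones from 56.6% to 82.9% and from 62.0% to 85.4%. The median of the set relative to all genes was -0.55 in WT and -0.90 in Mkx-KO under both scalings. The deposited scaling is 1 factor per array, which shifts every gene alike, so this equality was fixed in advance.

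A limma fit of genotype and age over the 4 arrays, with 1 residual degree of freedom, called none of the genes. For genotype 0 of 16795 genes (0%) passed an adjusted p of 0.05 after Benjamini-Hochberg adjustment, with 391 at an unadjusted p under 0.05, and the adjusted p of every gene of the set was 0.9997. The one gene of the set with an unadjusted p under 0.05 in this limma fit was Efemp1, at -0.56 with a standard error of 0.11 and lower in Mkx-KO at 2 of 2 ages. For age 0 of 16795 genes (0%) passed in limma, with 4884 at an unadjusted p under 0.05, and the adjusted p of the 10 genes lay between 0.102 and 0.506. Of the 10, 8 had an unadjusted p under 0.05 for age in this limma fit, beside 29.1% of all genes. Their largest fitted age effects were -2.25 (SE 0.33) for Fbn2, -1.24 (SE 0.21) for Mfap2 and -1.21 (SE 0.14) for Eln. The fit assumes that age and genotype add. Its 1 residual degree of freedom is the difference of differences given above, moderated by limma over all genes. Its standard errors and p-values thus measure departure from that assumption on these arrays. They do not measure variation between mice, and the origin of the samples is unstated.

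The genes that share the working life of these fibres were taken from 8 lists with 58 genes in all. Between genotypes they were mostly less than 2-fold apart. At 4 weeks 1 of 54 measured genes was higher in Mkx-KO by 2-fold or more and none was that much lower, against 0.472% and 3.31% of all genes. There were 37 above 0 with a median of 0.21, beside 58.8% and 0.06 for all genes. At 10 weeks 1 of 55 was lower by 2-fold or more and none was that much higher, against 1.37% and 1.04% of all genes. There were 28 above 0 with a median of 0.02, beside 51.5% and 0.01 for all genes, so the 10-week counts were near the background. The 4-week gene was Fbln7, the gene of fibulin-7, an adhesion protein of teeth and cartilage, at 1.12. The 10-week gene was Itgb6, an integrin chain of epithelia, at -1.05. Oral epithelium markers were lower in Mkx-KO at 10 weeks too, with a median of -0.83 over 7 genes and a summed level of 509 against 925, and their part in the Itgb6 value was not tested.

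**Figure D5:**
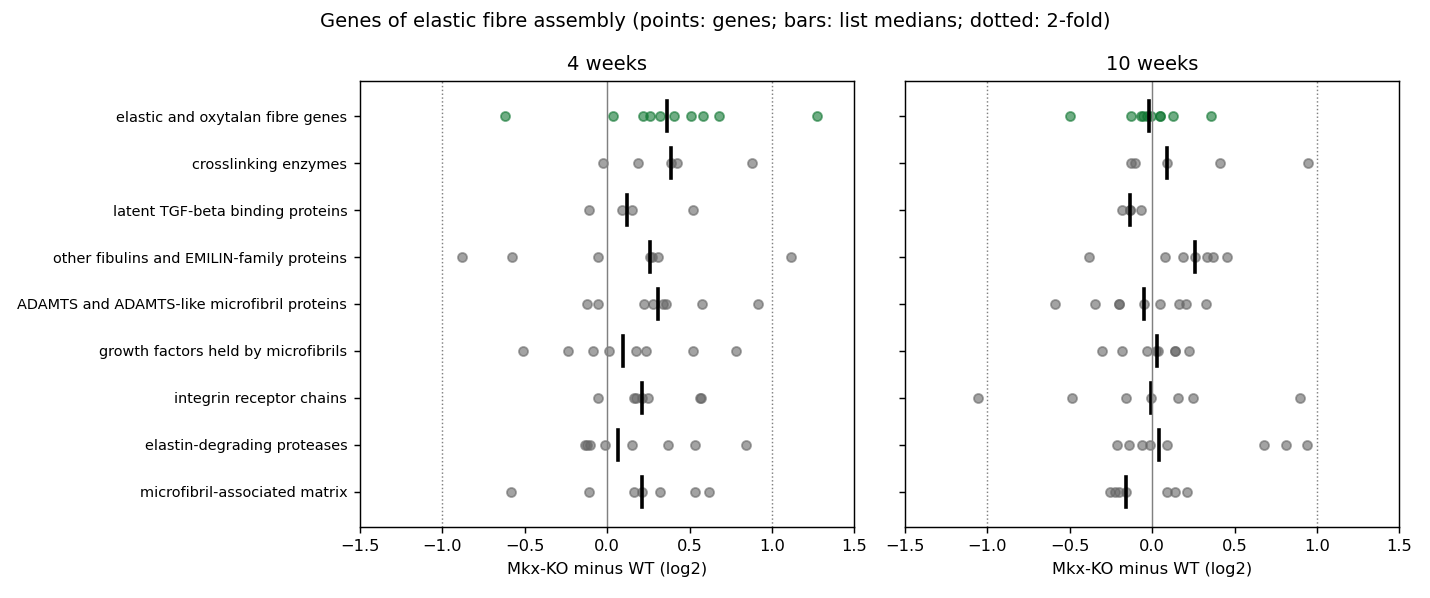
Mkx-KO minus WT (log2) at 4 weeks (left) and 10 weeks (right) for the 10 elastic and oxytalan fibre genes (green) and the 8 lists of related genes (grey); points are genes measured on both arrays, bars are medians and dotted lines mark 2-fold. The medians at 4 weeks are all above 0, from 0.07 to 0.39, and at 10 weeks they lie between -0.16 and 0.26.

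Crosslinking enzymes had a median of 0.39 at 4 weeks and 0.09 at 10 weeks over 5 genes. Lox, the lysyl oxidase that crosslinks both collagen and elastin, was at a level of 4.84 in WT and 5.72 in Mkx-KO tissue of 4 weeks and 3.35 and 4.29 at 10 weeks. Mkx-KO was thus above WT by 0.88 and 0.95, short of 2-fold at both ages, and the 10-week level differed by -1.496 in WT and by -1.43 in Mkx-KO. Unlike most of the 10 fibre genes, Lox had a like genotype difference at both ages, although the difference between such patterns was not tested. Loxl1, which maintains elastic fibres in adult tissue, differed by 0.42 at 4 weeks and -0.11 at 10 weeks.

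Among the 4 latent TGF-beta binding proteins, which sit on microfibrils and some of which hold TGF-beta there, Ltbp4 differed by 0.52 at 4 weeks and -0.13 at 10 weeks, and Ltbp1 by -0.11 and -0.18. Of other fibulins and EMILIN-family genes, Mmrn1, a multimerin of platelets and endothelium, differed by -0.88 at 4 weeks and 0.46 at 10 weeks, and Emilin3 by -0.58 and -0.39. Of the ADAMTS group, secreted proteins several of which bind fibrillin, Adamts17 differed by 0.91 and 0.20, and Adamtsl5 by -0.12 and -0.59. Among growth factors that microfibrils hold, Bmp7 differed by 0.78 at 4 weeks and -0.30 at 10 weeks, and Tgfb1 by 0.52 and 0.02.

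Of the integrin chains, Itgb3, of the vitronectin receptor, differed by 0.17 at 4 weeks and 0.90 at 10 weeks, and Itga8 by 0.57 and -0.49. Of the proteases that can cut elastin, Mmp12, the macrophage elastase, differed by 0.84 and -0.21, and Mmp9 by -0.12 and 0.94. Of the matrix proteins found on microfibrils, Vcan, the gene of versican, differed by 0.61 at 4 weeks and 0.09 at 10 weeks, and Vtn by -0.59 and 0.14. None of these reached 2-fold, and all 58 genes are on the array; Mmp7 was well above background on none of the arrays, Adamtsl3 and Itgb8 on 1 each and Papln on 3, so these have no genotype value at one or both ages.

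Genes whose levels moved most like those of the widest-ranging members were sought among 15503 others well above background on all 4 arrays, by the Euclidean distance between levels centred on each gene's mean over the 4 arrays. Nearest to Fbn2 was Fbln7, at a distance of 0.26, with levels on the WT and Mkx-KO arrays of 0.47 and 1.59 at the younger age and -1.24 and -0.87 at the older. Next were the predicted gene Gm17660 at 0.35 and Nkd1, an inhibitor of Wnt signalling, at 0.37. Nearest to Mfap2 was Sh3pxd2b, the gene of a podosome adaptor, at 0.03, with levels of 1.43 and 2.01 at 4 weeks and 0.51 and 0.42 at 10 weeks, followed by Gm10941 and 1700065D16Rik at 0.07 each. With 4 arrays, nearness of this kind is a description only.

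The 6 genes with a second probe offered a further look at precision. Over the 4 comparisons the probes had the same sign in 22 of 24 cases, and both exceptions, Fbn1 and Efemp2, were in the 10-week genotype comparison. The dimmer probe lay farther from 0 in 17 of 24 cases, and it differed from the brighter one by between -0.68 and 0.40. The probes of a gene share the RNA and the array, so they are not replicates of the condition.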

How the data were processed

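Total RNA (0.1 ug per preparation) was amplified and Cy3-labelled, per the labels' protocols, and hybridised to 4 one-colour arrays, all on 1 slide per the file headers. The deposited scan data hold spot intensity from Agilent Feature Extraction 11.5.1.1 (submitters' processing notes), background-subtracted and detrended per the file headers. The deposited series table holds the same intensity times 1 factor per array (1.54 to 2.08), whose choice is not given in the sources used here.

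Outlier spots (60 to 77 per array) were left out; 61.8% to 66.6% of spots were well above background and none was saturated. Replicate spots of 300 probes had a median SD of 0.0408 to 0.0452 log2 units; the number of arrays limits the precision. RefSeq accessions named 32994 of 56605 probes (22911 genes), and the brightest probe by mean log2 stood for a gene. Levels are log2 signal minus the array's 75th percentile. limma 3.58.1 (R 4.3.3; trend, Benjamini-Hochberg) fitted genes that 2 or more arrays had well above background and was tested on simulated data. Other steps ran in Python 3.11.15 with pandas 2.3.3, numpy 2.4.6 and matplotlib 3.10.9. Array positions are on mm9 and RefSeq's on GRCm38.p6, so no gene positions are given beyond RefSeq's promoters.

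Members and lists were chosen with earlier results of these data known. The text names all members, related genes at least 2-fold apart between genotypes, up to 2 others per list by largest genotype difference, and the 3 nearest genes of the 2 widest-ranging members. Loxl4, Papln, Gdf5, the smooth muscle markers Acta2, Tagln, Myh11 and Des, and genes without a value are named after their values were seen. Alternatives were normexp (offset 50), quantile normalization, median centring, the deposited values and the mean over probes. Others were filters, folds of 1.5 and 3 and a limit of 2 errors. The limma fit was also run after normexp, after quantile normalization, without trend and with no filter. It was run too for genes well above background on all 4 arrays, and with genotype or age alone.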

Additional observations from a re-analysis of the deposited data

How the results depend on the processing

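Directions of the 40 differences of the 10 genes (4 comparisons each) held in 40 under quantile normalization and median centring, 38 with the deposited scaling, 38 for the mean over probes and 37 under normexp. Those that turned were all within 1 scanner error of 0. Of values, 20 of 40 moved by more than the scanner error with the deposited scaling. It gave a median age difference of -0.29 in WT and -0.76 in Mkx-KO, with 1 and 3 genes at least 2-fold lower. Normexp gave 1 and 3 such genes and a median of -0.83 in Mkx-KO. Over all genes, 617 in WT and 601 in Mkx-KO were at least 2-fold lower with age in the main setting. With the deposited scaling these were 317 and 262, and under normexp 289 and 339. At 1.5-fold, 2 genes of the set were higher and 1 lower in Mkx-KO at 4 weeks. At that fold 5 were lower with age in WT and 1 was higher with age in Mkx-KO. At 3-fold, 0 were higher at 4 weeks, and 1 was lower with age in WT and 2 in Mkx-KO. The shares of all genes at these folds are not given here, so the counts have no background beside them. The limma age effect called 95 of 16795 genes after normexp, none of them in the set. With no filter on dim probes it called 959 of 22911 genes, 3 of them among the 10 genes of the set. The genotype effect called 0 in every form of the fit. The causes of these moves were not tested. No paired analysis was possible because each group has 1 array, and for the same reason no array could be left out. At 10 weeks 8 of 10 genotype differences were inside the scanner error, which does not cover variation between mice.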

Other observations

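With age, the median of the related genes in WT was near that of all genes. Of 55 related genes measured in WT, 7 were at least 2-fold lower and 3 at least 2-fold higher at 10 weeks, against 3.83% and 5.01% of all genes, and of 54 in Mkx-KO 10 were lower and 2 higher, against 3.84% and 6.25%. In WT 32 of 55 were lower, with a median of -0.09, beside 59.5% and -0.10 for all genes. In Mkx-KO 37 of 54 were lower, with a median of -0.30, beside 62.3% and -0.15. Crosslinking enzymes had medians of -0.48 in WT and -1.01 in Mkx-KO, with Lox, at -1.496 and -1.43, and Loxl4, at -1.06 and -1.03, at least 2-fold lower in both genotypes, and Loxl1, at -0.48 and -1.01, in Mkx-KO. Fbln7 differed by -1.72 and -2.46 and Adamts17 by -1.51 and -2.22.

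The 3 related genes at least 2-fold higher at 10 weeks in WT, a count near the share of all genes, were Itgb6 (1.83), Gdf5 (1.38), a growth factor of joints and tendon, and Papln (2.72), the gene of papilin. In Mkx-KO there were 2, Gdf5 (2.03) and Mmrn1 (1.71). Oral epithelium markers were higher at 10 weeks in WT, with a median of 1.21, and had a median of -0.40 in Mkx-KO, where Itgb6 differed by 0.61. Markers of nasal mucosa had medians of 0.74 in WT and 7.75 in Mkx-KO, and the part of either tissue in these values was not tested.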
